A study of Mus musculus with 8 samples.

Results

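Respiratory complex I, the NADH:ubiquinone oxidoreductase of the mitochondrial inner membrane, was examined through its genes in mouse liver. Its genes were taken as every entry of the deposited table whose symbol starts with Nduf or with mt-Nd, which gave 55 of 22013 genes. They comprised 7 mitochondrially encoded subunits, 7 nuclear core subunits, 30 nuclear accessory subunits, 8 assembly factors named Ndufaf, and 3 Nduf-named genes of another or unclear function (Ndufa4, Ndufa4l2 and Ndufb11b). After a filter on low counts 54 could be tested, and Ndufb11b had no count in any of the 8 libraries, which allows a level of up to 0.0206 CPM (3 counts over the 145834771 counts of all libraries, counting error only).

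The libraries were made from liver RNA captured with oligo(dT), of which 4 belonged to a control and 4 to a resmetirom group by their titles. Resmetirom activates the thyroid hormone receptor, preferring its beta form. The treated mice had been fed fructose, palmitate and cholesterol for 12 weeks as a model of metabolic dysfunction-associated steatohepatitis, and from week 4 on they had received resmetirom intraperitoneally at 5 mg/kg/day for 8 weeks in a vehicle of 0.5% CMC-Na and 0.4% Tween-80. For the control libraries neither diet nor vehicle is stated, so these cannot be told apart from the drug. Genotype, strain, age and sex are not given in the sources used here for either group, nor is it said that each library is a separate animal, so the p-values rest on a spread between libraries that may be technical.

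Complex I takes electrons from NADH, passes them along a chain of iron-sulfur clusters in a peripheral arm to ubiquinone, and pumps protons through a membrane arm. The core subunits carry out this chemistry: those of the peripheral arm are encoded in the nucleus, and those of the membrane arm, mt-Nd1 to mt-Nd6 with mt-Nd4l, on the mitochondrial chromosome. Accessory subunits surround the core, and assembly factors help to build the enzyme without remaining in it. In liver, whose hepatocytes are rich in mitochondria, the enzyme reoxidizes NADH formed by fatty acid oxidation and the citric acid cycle.

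The mitochondrial members are printed at the start of their reading frames because they use different first codons and share bases with neighbours, which bears on how reads were assigned. The first 24 bases follow, read on the coding strand from mm10 coordinates (GRCm38, GENCODE M21), with the first codon in capitals. For mt-Nd4 the end is printed too, with its last base in capitals, which is an incomplete stop codon of the kind that polyadenylation completes.
mt-Nd1: GTGttctttattaatatcctaaca
mt-Nd2: ATAaatcctatcacccttgccatc
mt-Nd3: ATTaacctgtacactgttatcttc
mt-Nd4: ATGctaaaaattattcttccctca
mt-Nd4 end: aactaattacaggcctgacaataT
mt-Nd4l: ATGccatctaccttcttcaacctc
mt-Nd5: ATCaatattttcacaacctcaatc
mt-Nd6: ATGaataattatatttttgtttta

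On the plus strand, mt-Nd4l and mt-Nd4 are adjacent in 1 transcript and share 7 bases, in capitals, at chrM:10149-10191. mt-Nd6 is the only 1 of the 7 on the minus strand, and its end shares 14 bases, in capitals, with the end of mt-Nd5 at chrM:13534-13583, printed on the plus strand.
mt-Nd4l/mt-Nd4: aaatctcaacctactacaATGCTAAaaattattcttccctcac
mt-Nd5/mt-Nd6: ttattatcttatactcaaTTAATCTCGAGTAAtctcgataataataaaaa
How the authors handled strand is not given in the sources used. Reads of mt-Nd6 can therefore not be told apart from reads of the opposite strand, and reads at the shared ends could fall to either gene.

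Within the 55 genes, the median log2 fold change with resmetirom was largest for those encoded in mitochondria. Accessory subunits came next, then nuclear core subunits, then assembly factors. This order held in every scaling compared below, but the accessory, core and assembly factor medians fell below 0 in some of them. In edgeR's quasi-likelihood test with TMM factors, which scale the libraries so that most genes do not shift, 7 members rose and none fell at a Benjamini-Hochberg adjusted p under 0.05 (CPM values, counts scaled to the same library size, carry the TMM factors throughout unless said otherwise). Of all 12207 genes tested, 4.59% were called, 2.6% higher and 1.99% lower. The 7 were mt-Nd3, mt-Nd4l, mt-Nd5, mt-Nd6, Ndufb11, Ndufa6 and Ndufc2. Without control replicate 4 or resmetirom replicate 4 the count was 2, without control replicate 2 it was 3, and without resmetirom replicate 3 it was 4. Before adjustment 30 members had an edgeR p under 0.05 in the higher and 0 in the lower direction, and with TMM factors 49 of 54 fold changes lay above 0. The matching shares of all tested genes were not counted. These counts, and those at an unadjusted p given further on, are therefore descriptions with no background beside them. The medians on the log2 scale were 0.57 for the mitochondrial subunits, 0.29 for the accessory subunits, 0.12 for the nuclear core subunits and 0.043 for the assembly factors, against -0.0043 over all tested genes. In the CPM values, 5 of 7 mitochondrial, 13 of 30 accessory, 1 of 7 nuclear core subunits and 0 of 8 assembly factors had all 4 resmetirom libraries above all 4 control libraries, against 6.32% of all tested genes.

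**Figure D1:**
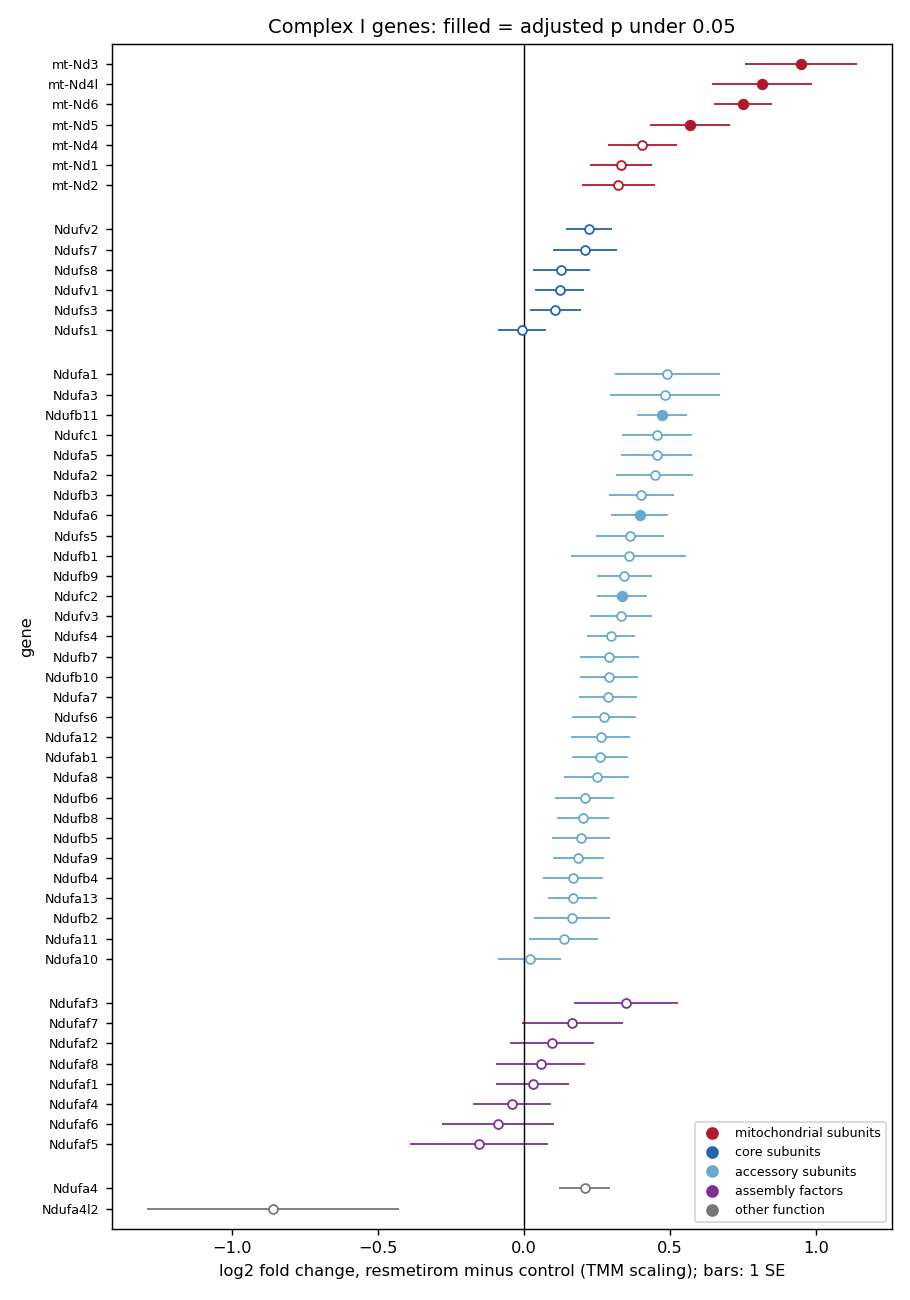
Log2 fold change of the reported Complex I genes (x axis, resmetirom minus control, TMM scaling) with bars of 1 SE, grouped by class and ordered within it, filled points marking an adjusted p under 0.05. All 7 mitochondrial and all 30 accessory subunits lie right of 0, and the 8 assembly factors lie on both sides, but with library sizes as the only scaling 6 of the 7 and 13 of the 30 lie right of 0.

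These counts depend on the scaling. With library sizes only, 2 members were called higher (mt-Nd3 and mt-Nd6) and none lower, against 1.24% of all genes higher and 16.1% lower. Falls then made up 92.9% of calls instead of 43.4%, and the median of all genes moved to -0.31. With limma on log2(TPM + 1), where TPM also corrects for gene length, 0 members were called higher and 10 lower: 4 core subunits, Ndufs1 among them, 4 assembly factors, Ndufa10 and Ndufa4l2, against 1.01% of all genes higher and 38.1% lower, with a median over all genes of -0.41. Of the calls in that setting, 97.4% were lower. The authors' deposited table, whose p-values have no stated tool, gives 2 members as higher at an adjusted p under 0.05 (mt-Nd3 and mt-Nd6) and 8 as lower. The shares of all genes higher and lower in the authors' columns were not counted, so these 2 counts cannot be read as particular to Complex I. DESeq2, with its own size factors, called 15 members higher and 0 lower, against 4.36% and 3.37% of all genes. The class medians kept 1 order in the 5 scalings compared, from mitochondrial through accessory and core to assembly factors, while their position against 0 moved. With library sizes only they were 0.25, -0.011, -0.19 and -0.26, and on log2(TPM + 1) they were 0.084, -0.21, -0.38 and -0.47.

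**Figure D2:**
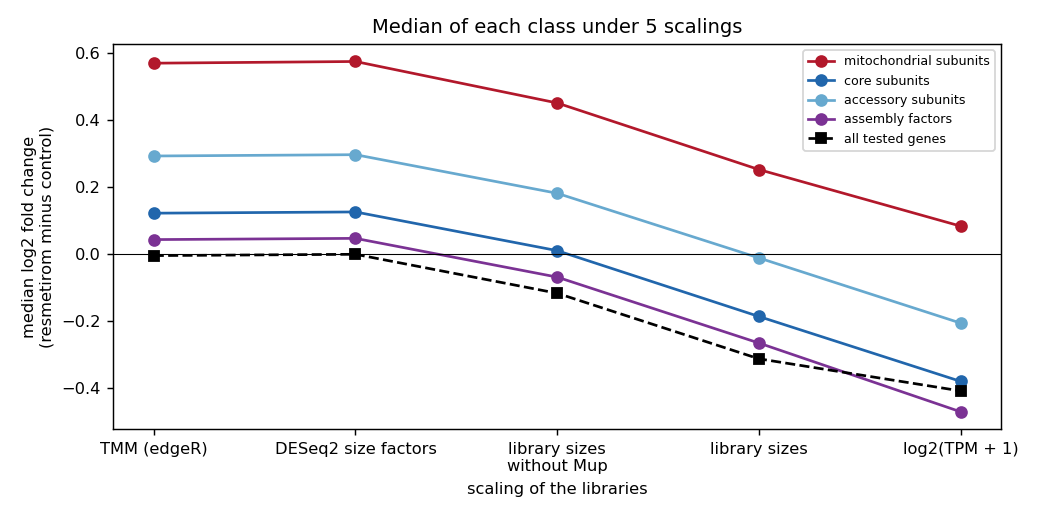
Median log2 fold change of each class (y axis, resmetirom minus control) under 5 scalings of the libraries (x axis), with all tested genes as black squares. The 4 class lines do not cross, while the median of the accessory subunits goes from 0.29 with TMM factors to -0.21 on log2(TPM + 1).

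A shift in the makeup of the libraries moved with the groups. Counts per library were 16787561 to 19887539, and Mup genes, which encode the abundant major urinary proteins, took 4.32% to 7.05% of counts in the control libraries and 7.54%, 20.1%, 25.1% and 17.8% in resmetirom replicates 1 to 4. TMM factors of control libraries ranged from 1.08 to 1.16, and those of resmetirom replicates 1 to 4 were 1.06, 0.867, 0.804 and 0.879, so resmetirom replicate 1 lay just outside the control range in both and nearer to it than to the other 3. Summed over the 37 nuclear subunits, TMM-scaled levels were 2547, 2403, 2442 and 2235 CPM in the control and 2792, 2605, 2842 and 3020 CPM in the resmetirom libraries, with no overlap. Scaled by library size alone the same sums were 2750, 2594, 2783 and 2593 CPM against 2946, 2257, 2284 and 2655 CPM, and the groups overlapped. With the Mup genes left out of the library sizes, 4 members were called higher and 0 lower, against 1.93% and 3.64% of all genes, whose median was -0.12. The part of the Mup share in these results was not tested beyond that. Hepatocyte markers, 6 of 7 in the table, summed to 75418 to 84449 CPM in the control and 92152 to 100398 CPM in the resmetirom libraries, without overlap. They were abundant in all 8, and most of the sum was Alb, at means of 58272 and 73186 CPM. Cps1 rose (0.76, SE 0.15, edgeR adjusted p = 0.00988). Alb, Apoa1 and Apob were higher without a call (0.33, 0.35 and 0.057), and Serpina1c and Ttr lower without a call (-0.61 and -0.088). The list median was 0.19. In bulk RNA, fewer cells of a type and less RNA per cell cannot be told apart. Of 7 striated muscle markers, a tissue also rich in Complex I, 5 were at 0 in every library and the rest summed to at most 0.225 CPM. Markers of other cell types moved too, in both directions. Of 7 stellate cell markers 1 fell, the collagen gene Col3a1 (-1.06, SE 0.25, edgeR adjusted p = 0.0474), with a list median of -0.40. Of 3 erythroid markers 1 fell, the heme synthesis gene Alas2 (-2.52, SE 0.29, edgeR adjusted p = 0.00158). Hba-a1 and Hbb-bs of that list went the other way without a call (0.78 and 0.74), and the list median was 0.74. Of 5 cholangiocyte and 4 tested lymphocyte markers none was called, with medians of 0.67 and 1.06. Among the lymphocyte markers 2 were higher at an unadjusted edgeR p under 0.05, and 1 cholangiocyte marker was lower. Of 6 endothelial markers none was called, with 2 lower at an unadjusted edgeR p under 0.05 and a median of -0.36. Among 8 macrophage markers none was called either, with a median of -0.12 and sums of 614 to 975 and 369 to 1002 CPM. Summed levels overlapped between the groups, at 101 to 161 and 82.7 to 134 CPM for stellate, 169 to 240 and 142 to 217 CPM for endothelial, and 94.5 to 172 and 104 to 235 CPM for erythroid markers. Their part in the Complex I results was not tested.

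Per length, the mitochondrial subunits were the most abundant Complex I transcripts. In TPM, control means ran from 385 for mt-Nd4l to 15214 for mt-Nd1, against 20.5 to 364 with a median of 122 for the 37 nuclear subunits and 6.66 to 31.7 with a median of 20.1 for the 8 assembly factors. The lowest of the mitochondrial means, that of mt-Nd4l with an SD of 91.1 TPM, did not differ from the highest nuclear one beyond its spread, and the other 6 were at 1506 TPM or more.

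The membrane arm's proton-pumping core is encoded by mt-Nd2, mt-Nd4 and mt-Nd5, and mt-Nd1 joins that arm to the ubiquinone site. mt-Nd5 (ENSMUSG00000064367, chromosome M, 11742 to 13565, plus strand) was at 2038, 2667, 3240 and 3138 CPM in control replicates 1 to 4 and at 3836, 4362, 3871 and 4372 CPM in resmetirom replicates 1 to 4. All 4 resmetirom values lay above the controls, of which replicate 1 was the lowest. mt-Nd5 rose by a log2 fold change of 0.57 (SE 0.14, edgeR adjusted p = 0.0359), a call lost without any 1 of control replicates 1, 2 and 4 or resmetirom replicates 2, 3 and 4, and with library sizes only (0.25, adjusted p = 0.256).

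The other 3 of these genes did not pass the test. mt-Nd1 (ENSMUSG00000064341, 2751 to 3707, plus strand) was at 6791, 7740, 8477 and 8137 CPM in the control and 8795, 9502, 9901 and 11009 CPM in the resmetirom libraries. Its groups did not overlap, with a log2 fold change of 0.33 (SE 0.11, edgeR adjusted p = 0.113). mt-Nd4 (ENSMUSG00000064363, 10167 to 11544, plus strand) was at 5517, 6232, 6924 and 6474 CPM against 6783, 8696, 8313 and 9532 CPM, so resmetirom replicate 1 lay among the controls. Its log2 fold change was 0.41 (SE 0.12, edgeR adjusted p = 0.0817). mt-Nd2 (ENSMUSG00000064345, 3914 to 4951, plus strand) overlapped too, at 5966, 6360, 7470 and 6881 CPM against 6543, 8247, 9199 and 9403 CPM. Its log2 fold change was 0.32 (SE 0.13, edgeR adjusted p = 0.197), and with library sizes only it was -0.0046. On log2(TPM + 1) mt-Nd1, mt-Nd2 and mt-Nd4 all turned below 0, to -0.17, -0.19 and -0.11. DESeq2 called mt-Nd1 and mt-Nd4 as well, at adjusted p of 0.0358 and 0.0234.

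The short subunits mt-Nd3 and mt-Nd4l, small hydrophobic proteins near the junction of the arms, had the largest fold changes among the members that were higher. mt-Nd3 (ENSMUSG00000064360, 9459 to 9806, plus strand) was at 676, 396, 561 and 392 CPM in the control and 838, 837, 1174 and 1060 CPM in the resmetirom libraries. The lowest resmetirom library was above the highest control library, and the controls varied among themselves, with replicates 1 and 3 above replicates 2 and 4. mt-Nd3 rose by a log2 fold change of 0.95 (SE 0.19, edgeR adjusted p = 0.0192), which was 0.63 with library sizes only and 0.47 on log2(TPM + 1) with an adjusted p of 0.0532. The call was lost without control replicate 2 or 4 or resmetirom replicate 4. mt-Nd4l (ENSMUSG00000065947, 9877 to 10173, plus strand) was at 77.6, 42.9, 68.9 and 56.3 CPM in the control and 100.2, 99.2, 131 and 102 CPM in the resmetirom libraries, with resmetirom replicate 3 apart from the other 3. It rose by a log2 fold change of 0.82 (SE 0.17, edgeR adjusted p = 0.0205), lost without control replicate 4 or resmetirom replicate 4 and with library sizes only (0.50, adjusted p = 0.0532). Although mt-Nd4l and mt-Nd4 share a transcript and the 7 bases printed above, mt-Nd4l was at 385 TPM and mt-Nd4 at 8529 TPM in the control libraries. At 297 and 348 bases, mt-Nd4l and mt-Nd3 have the shortest exonic length of all members. Together they took 3.52%, 1.84%, 2.31% and 1.76% of all mt-Nd counts in the control libraries. In the resmetirom libraries they took 3.41%, 2.88%, 3.92% and 3.21%. This share within a library overlapped between the groups, since control replicate 1 lay above resmetirom replicates 1, 2 and 4.

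mt-Nd6, a membrane arm subunit (ENSMUSG00000064368, 13552 to 14070, minus strand), had the smallest p of all members. It was at 354, 408, 475 and 434 CPM in the control and 647, 725, 702 and 739 CPM in the resmetirom libraries, with a wide gap between the groups. mt-Nd6 rose by a log2 fold change of 0.75 (SE 0.10, edgeR adjusted p = 0.00102). It kept its call without any single library and with library sizes only (0.43, adjusted p = 0.0311), and lost it on log2(TPM + 1) (0.25, adjusted p = 0.200). Per 100 counts of the other 6 mitochondrial subunits, it gave 1.68, 1.74, 1.78 and 1.73 counts in the control and 2.41, 2.29, 2.15 and 2.08 counts in the resmetirom libraries. This ratio within a library does not depend on scaling, and was 1.73 ± 0.0397 against 2.23 ± 0.144 (SD, n = 4 each) with no overlap. Measured the same way, 1.04% of all tested genes were higher without overlap and 26.7% lower. The libraries came from oligo(dT) capture, so these levels are of what that capture recovered.

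**Figure D3:**
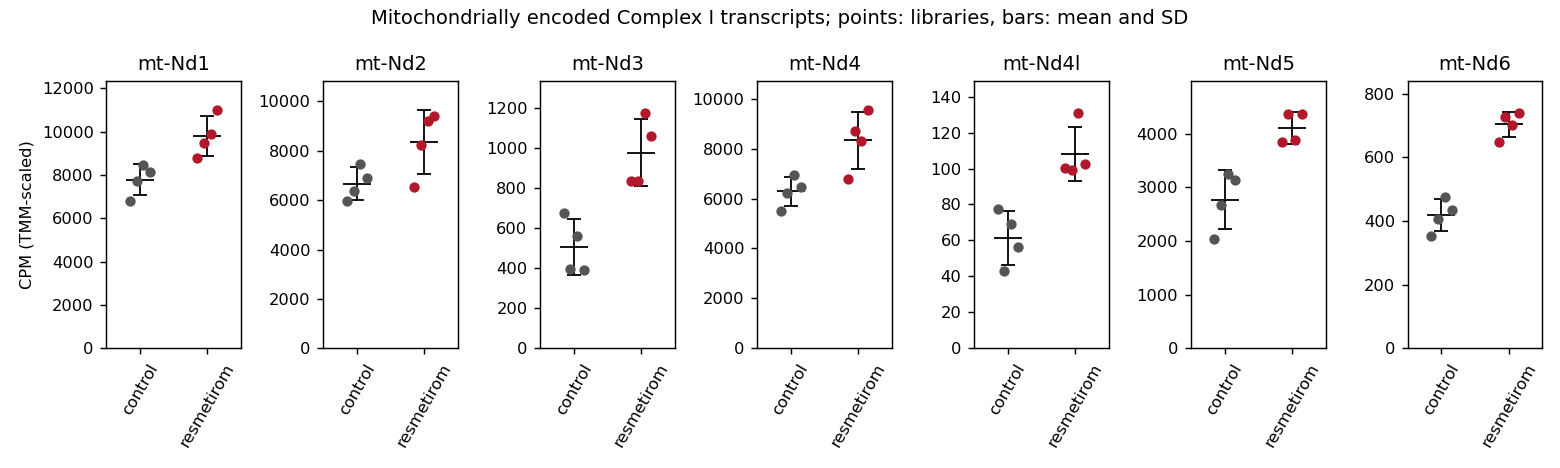
TMM-scaled CPM (y axes, from 0, each panel with its own range) of the 7 mitochondrially encoded Complex I transcripts in 4 control and 4 resmetirom libraries, with the mean and SD as bars. The groups do not overlap for mt-Nd1, mt-Nd3, mt-Nd4l, mt-Nd5 and mt-Nd6 and overlap for mt-Nd2 and mt-Nd4.

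The mitochondrial set was also compared with the nuclear one inside each library. Summed mt-Nd counts over summed nuclear subunit counts gave 8.41, 9.92, 11.1 and 11.4 in the control and 9.87, 12.5, 11.7 and 12.0 in the resmetirom libraries. The groups overlapped, since resmetirom replicate 1 lay below control replicates 2, 3 and 4, and the means were 10.2 ± 1.37 and 11.5 ± 1.14 (SD, n = 4 each). The ratio of mt-Nd5 to mt-Nd1 counts was 0.300, 0.345, 0.382 and 0.386 in the control and 0.436, 0.459, 0.391 and 0.397 in the resmetirom libraries. The groups did not overlap, though resmetirom replicates 3 and 4 lay close to control replicates 3 and 4. How many of all tested genes lay apart relative to mt-Nd1 was not counted, so this ratio is a description with no background beside it.

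Of the 7 nuclear core subunits of the peripheral arm, none passed edgeR's test, and 1 (Ndufv2) had an unadjusted p under 0.05. DESeq2 called none either. Ndufs1 (ENSMUSG00000025968, chromosome 1, 63143596 to 63176833), the largest of them and the holder of several iron-sulfur clusters, was at 139, 145, 142 and 135 CPM in the control and 128, 143, 135 and 152 CPM in the resmetirom libraries. These ranges lie over each other, with a log2 fold change of -0.0072 (SE 0.082, edgeR adjusted p = 0.981) whose sign turned without control replicate 2 or resmetirom replicate 1 or 3. Ndufv1, which binds NADH and FMN, averaged 107 ± 7.01 CPM in control and 116 ± 6.53 CPM in resmetirom libraries (SD, n = 4 each). Its log2 fold change was 0.12 (SE 0.084, edgeR adjusted p = 0.523). Its partner in the NADH-binding module, Ndufv2 (ENSMUSG00000024099, chromosome 17, 66078638 to 66101559), was at 117, 125, 122 and 115 CPM against 130, 142, 140 and 147 CPM. Ndufv2 was the core subunit whose groups did not overlap, with a log2 fold change of 0.22 (SE 0.079, edgeR adjusted p = 0.150). In the ubiquinone-binding module the log2 fold changes were 0.11 for Ndufs3, 0.21 for Ndufs7 and 0.13 for Ndufs8, with edgeR adjusted p between 0.359 and 0.601. With library sizes only, all 7 core subunits lay below 0, from -0.32 for Ndufs1 to -0.089 for Ndufv2, and none was called. As a share of all nuclear subunit counts, the core took 30.8%, 32.5%, 30.2% and 31.7% in the control and 27.6%, 30.4%, 29.1% and 28.2% in the resmetirom libraries, overlapping where resmetirom replicate 2 reached control replicate 3.

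The 30 accessory subunits had log2 fold changes of 0.02 to 0.49, all above 0 with TMM factors, while with library sizes only 13 of 30 and on log2(TPM + 1) 1 of 30 lay above 0. Ndufb11 (ENSMUSG00000031059, chromosome X, 20615326 to 20617619, minus strand), a membrane arm subunit, was at 89.4, 94.2, 98.6 and 85.5 CPM in the control and 135, 119, 124 and 133 CPM in the resmetirom libraries. All 4 resmetirom values were clear of the controls. It rose by a log2 fold change of 0.47 (SE 0.085, edgeR adjusted p = 0.00678), which held without any single library, but was 0.17 with library sizes only (adjusted p = 0.330) and -0.033 on log2(TPM + 1). Ndufa6 (ENSMUSG00000022450, chromosome 15, 82350140 to 82354322, minus strand), a peripheral arm protein of the LYR family that binds the acyl carrier protein Ndufab1, was at 86.3, 80.6, 96.3 and 79.6 CPM against 114, 98.1, 119 and 119.9 CPM. Resmetirom replicate 2 was just above control replicate 3. Ndufa6 rose by a log2 fold change of 0.40 (SE 0.098, edgeR adjusted p = 0.0405), a call lost without any 1 of control replicates 1, 2 and 4 or resmetirom replicates 1, 3 and 4. Ndufc2 (ENSMUSG00000030647, chromosome 7, 97400003 to 97407802, plus strand), a membrane arm subunit, was at 49.9, 57.2, 56.5 and 52.2 CPM against 65.9, 67.7, 66.9 and 71.9 CPM, with no overlap. It rose by a log2 fold change of 0.34 (SE 0.086, edgeR adjusted p = 0.0476), lost when any single library was left out. With library sizes only Ndufa6 and Ndufc2 were at 0.088 and 0.026, neither called, and on log2(TPM + 1) at -0.11 and -0.17.

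The other 27 accessory subunits did not pass, although 21 of all 30 had an unadjusted edgeR p under 0.05, all higher, and DESeq2 called 9. The medians by name were 0.28 for the 12 Ndufa subunits, 0.29 for the 11 Ndufb subunits and 0.30 for the 3 Ndufs subunits. Ndufab1, the mitochondrial acyl carrier protein, was at 0.26, Ndufv3 at 0.33 and Ndufc1 at 0.45. At the low end stood Ndufa10 (chromosome 1), a membrane arm subunit of the nucleoside kinase family, at 157, 127, 115 and 113 CPM in the control and 133, 127, 124 and 136 CPM in the resmetirom libraries. The control range of Ndufa10 enclosed all its resmetirom values, with a log2 fold change of 0.02 (SE 0.11, edgeR adjusted p = 0.957) that was -0.28 with library sizes only. Over the control libraries the coefficient of variation was 3.78% to 28.2% among accessory subunits, with a median of 8.85%, and 2.98% to 10.1% among core subunits. Ndufa1, with the largest fold change of the class (0.49, SE 0.18, edgeR adjusted p = 0.173), was among those that overlapped.

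Relative to the summed nuclear subunit counts of the same library, 4 members stood higher in every resmetirom than in every control library, namely mt-Nd3, mt-Nd4l, mt-Nd6 and Ndufb11. Ndufa4l2 was lower in the same sense. Of all tested genes 2.14% were higher and 16.6% lower by that measure. Ndufb11 took 3.51% to 4.04% of the nuclear sum in the control and 4.35% to 4.84% in the resmetirom libraries.

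The 8 assembly factors showed no call in either direction with edgeR or DESeq2, and 0 had an unadjusted edgeR p under 0.05. Ndufaf1, which acts early in building the membrane arm, was at 26.5, 24.3, 19.8 and 21.6 CPM in the control and 21.2, 21.8, 24.4 and 26.8 CPM in the resmetirom libraries, and the ranges nearly coincided. Its log2 fold change was 0.03 (SE 0.12, edgeR adjusted p = 0.942). Ndufaf3, which partners Ndufaf4, had the largest value, 0.35 (SE 0.18, edgeR adjusted p = 0.344), at 8.10, 7.60, 5.86 and 5.34 CPM against 7.72, 8.05, 8.92 and 9.62 CPM. Its resmetirom replicates 1 and 2 lay within the control range. Ndufaf2 and the methyltransferase gene Ndufaf7 were at 0.10 and 0.17 (edgeR adjusted p = 0.807 and 0.704), Ndufaf8 at 0.057, and Ndufaf4, Ndufaf5 and Ndufaf6 at -0.041, -0.15 and -0.09. With library sizes only 1 of 8 was above 0. Per 100 nuclear subunit counts the assembly factors together gave 4.57, 4.83, 4.20 and 5.05 counts in the control and 3.71, 4.82, 3.94 and 3.95 counts in the resmetirom libraries. Resmetirom replicate 2 lay among the controls and the other 3 lay below them.

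**Figure D4:**
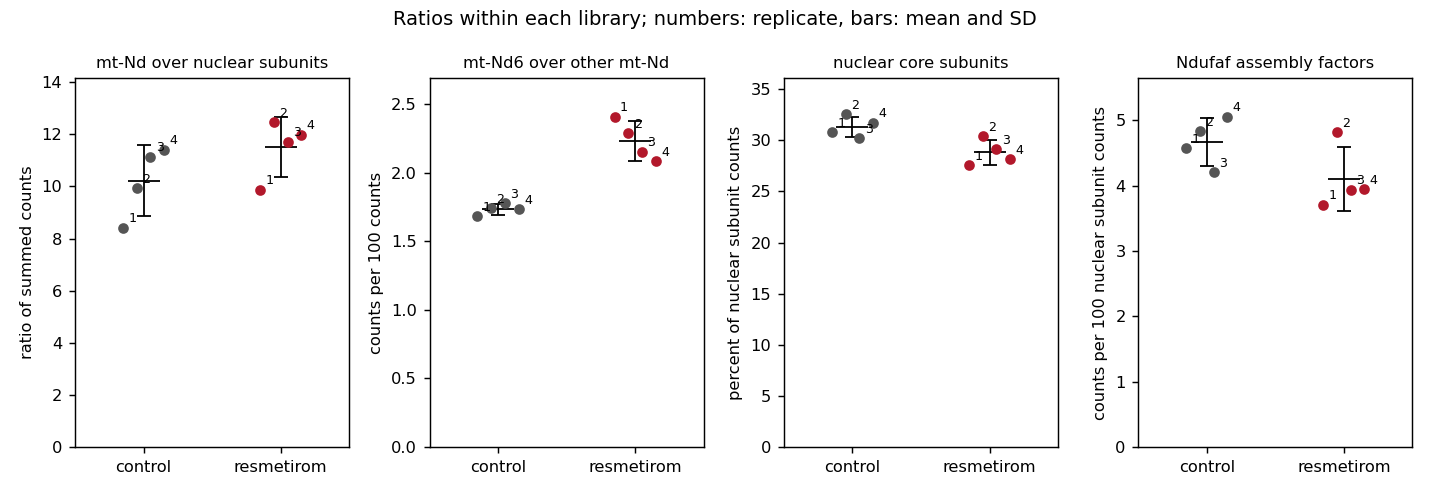
Ratios of summed counts within each of the 8 libraries (y axes from 0, points numbered by replicate, bars showing mean and SD): mt-Nd over nuclear subunits, mt-Nd6 per 100 other mt-Nd counts, core subunits as a percentage of nuclear subunit counts, and assembly factors per 100 nuclear subunit counts. The groups are apart for mt-Nd6, at 1.68 to 1.78 against 2.08 to 2.41, and overlap in the other 3 panels.

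Among the Nduf-named genes of other function, Ndufa4, now known as a subunit of cytochrome c oxidase, was at 275 ± 21.1 and 317 ± 19.3 CPM (SD, n = 4 each). Ndufa4 had a log2 fold change of 0.21 (SE 0.086, edgeR adjusted p = 0.228), which was -0.098 with library sizes only. Its hypoxia-inducible relative Ndufa4l2 had 18, 16, 27 and 27 counts in the control and 11, 4, 11 and 10 counts in the resmetirom libraries. In CPM the groups did not overlap, with a log2 fold change of -0.86 (SE 0.43, edgeR adjusted p = 0.336), and 5.5% of all tested genes were lower without overlap. At 4 to 27 counts per library this difference was not detectable with edgeR, while limma on log2(TPM + 1) called it lower (-0.77, adjusted p = 0.0128).

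Exonic length, the union of a gene's annotated exons, moved with the fold changes. It can exceed the length of the transcript expressed. Ndufb2, at 5628 bases, averaged 25.8 CPM and 89.0 TPM in the control libraries. Ndufa2, at 572 bases, averaged 31.8 CPM and 104 TPM there, so that union was not the length behind TPM. The ranges and the trend below use the union, and some members counted as long may have short transcripts. Across the 37 nuclear subunits, Spearman's rho between log2 fold change and exonic length was -0.577, a description over genes that share the same 8 libraries. The same direction was seen over all tested genes: the median was 0.47 in 42 genes under 600 bases, 0.24 in 201 genes of 600 to 1000 bases, 0.11 in 525 genes of 1000 to 1500 bases and -0.023 in 6925 genes of 4000 bases or more. In those ranges the nuclear subunits had medians of 0.47 (2 genes), 0.34 (7 genes), 0.34 (9 genes) and 0.20 (5 genes). With the trend on length over all genes taken out, the class medians were 0.33 for mitochondrial, 0.18 for accessory, 0.072 for core subunits and -0.036 for assembly factors. Genes under 1000 exonic bases, without mitochondrial and Mup genes, took 2.22%, 2.07%, 2.31% and 2.03% of counts in the control libraries. In the resmetirom libraries they took 2.49%, 2.19%, 2.40% and 2.44%, and the groups overlapped through resmetirom replicate 2. Whether library fragment size had a part in this was not tested.

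**Figure D5:**
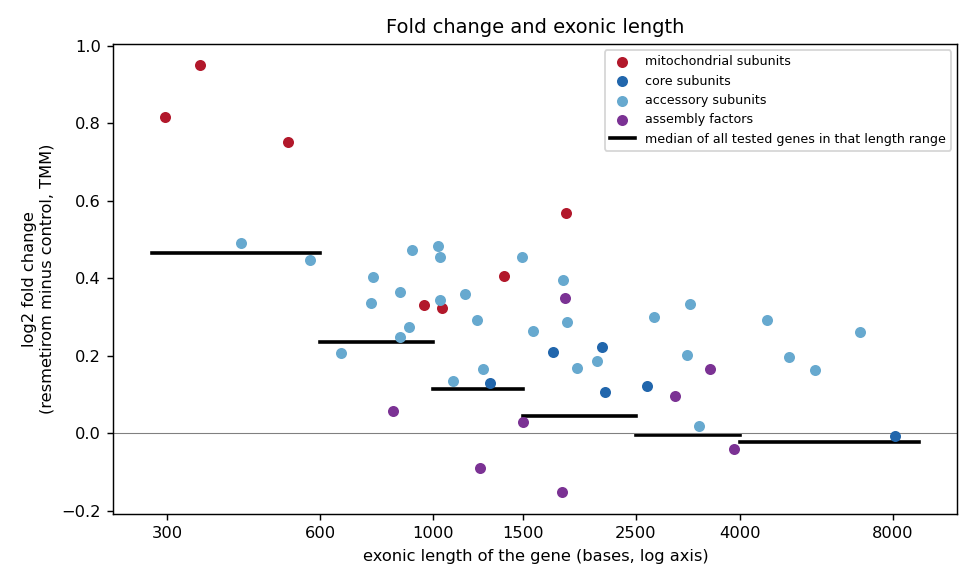
Log2 fold change (y axis, resmetirom minus control, TMM scaling) of the reported mitochondrial, core, accessory and assembly factor genes against exonic length in bases (x axis, log scale), with black lines for the median of all tested genes in 6 length ranges. The line falls from 0.47 under 600 bases to -0.023 at 4000 bases and above, and most accessory subunits lie above it. Exonic length is the union of annotated exons and can exceed the length of the transcript expressed.

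Promoter sequence was examined for letters known to bind regulators of nuclear respiratory genes. RefSeq windows of 300 bases (GRCm38.p6, 250 before and 50 after the start) were found for 40 of the 45 nuclear subunits and assembly factors. On either strand, the letters of NRF1, GCGCA and GCGC with any 1 base between them, occurred in 9 of the 40 (22.5%), against 5.19% of 27025 genes, and AAGATGGC of YY1 in 8 (20%), against 3.19%. Those of GABP, CCGGAAGT, occurred in 1 (2.5%), against 4.31%, and those of ERRA, TCAAGGTCA, in 0, against 0.466%. The 27025 genes outnumber the 12207 tested, so this background is not limited to genes expressed in these libraries. Shares among the tested genes were not counted. Members with the NRF1 letters had a median log2 fold change of 0.25 and those without 0.22, and for YY1 both medians were 0.24. An accessory subunit and an assembly factor serve as examples, shown as the 120 bases before the start on the coding strand with the NRF1 letters in capitals, at chr17:56717642-56717761 and chr4:24897963-24898082, both on the plus strand.
Ndufa11: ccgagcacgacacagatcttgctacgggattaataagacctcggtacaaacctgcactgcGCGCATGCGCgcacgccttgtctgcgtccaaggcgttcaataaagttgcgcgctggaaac
Ndufaf4: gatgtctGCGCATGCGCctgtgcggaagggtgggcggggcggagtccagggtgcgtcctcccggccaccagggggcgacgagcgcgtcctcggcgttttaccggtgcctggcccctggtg
Neither of these examples passed the test: Ndufa11 had a log2 fold change of 0.14 (edgeR adjusted p = 0.635) and Ndufaf4 of -0.041 (edgeR adjusted p = 0.926). Among the 9 members with the NRF1 letters, Ndufa6 was called (0.40, edgeR adjusted p = 0.0405).

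Other genes of the pathway were read from 6 lists. The other mitochondrially encoded proteins, subunits of complexes III, IV and V, were higher like the mt-Nd genes: 5 of 6 rose with TMM factors, with a median log2 fold change of 0.53, and with library sizes only 0 were called and the median was 0.21. mt-Cytb, the complex III subunit, was at 5386, 6162, 6567 and 6291 CPM in the control and 7443, 10045, 9077 and 10258 CPM in the resmetirom libraries (0.59, SE 0.12, edgeR adjusted p = 0.0128). The cytochrome c oxidase subunits mt-Co3 and mt-Co2 rose by 0.52 each (edgeR adjusted p = 0.0142 and 0.0143). Of 12 tested assembly factors of Complex I not named Nduf, none was called in either direction by edgeR, with 0 at an unadjusted p under 0.05 and a median of 0.032, and Lyrm2 had the smallest p (0.29, SE 0.20, edgeR adjusted p = 0.515). Of 22 genes of mitochondrial transcription, RNA processing and replication none was called, with 3 higher at an unadjusted edgeR p under 0.05 and a median of -0.038, and the elongation factor Tefm came nearest (0.55, SE 0.16, edgeR adjusted p = 0.0815).

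Of 12 regulators of mitochondrial biogenesis 1 rose and none fell, with a median of 0.16. This was Esrrg, an orphan nuclear receptor, at 1.21, 3.82, 3.14 and 2.82 CPM in the control and 8.74, 9.48, 4.73 and 10.1 CPM in the resmetirom libraries, so resmetirom replicate 3 lay nearest to the controls. Its log2 fold change was 1.59 (SE 0.33, edgeR adjusted p = 0.0185), a call lost without control replicate 4 or resmetirom replicate 2 or 4. Of 14 genes for NADH supply and supercomplexes none was called, with 3 higher at an unadjusted edgeR p under 0.05 and a median of 0.13, and the cytosolic aspartate aminotransferase Got1 came nearest at 114, 209, 117 and 159 CPM against 454, 479, 197 and 379 CPM (1.33, SE 0.32, edgeR adjusted p = 0.0637). Control replicate 2 exceeded resmetirom replicate 3. Of 16 genes of ubiquinone synthesis and other ubiquinone-reducing enzymes none was called, with 3 higher at an unadjusted edgeR p under 0.05 and a median of -0.0025, and the complex II anchor Sdhd had the smallest p (0.32, SE 0.093, edgeR adjusted p = 0.0772). These lists also gave falls with library sizes only: 2 of the 12 further assembly factors, 6 of 22, 3 of the 12 regulators, 1 of 14 and 2 of 16, against 16.1% of all genes, and Esrrg was the 1 gene of the 6 lists still called higher.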

How the data were processed

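Liver RNA was measured in 8 libraries, 4 per group, grouped by the titles in the labels. The deposited table lists 22013 genes with counts as whole numbers, TPM, a log2 fold change of group means of TPM, and p-values with adjusted p-values, per the file headers. The submitters' processing notes list the build mm10 and RSEM, edgeR, DESeq2, StringTie 1.3.1, HISAT2 2.1.0, Bowtie2 2.2.8 and fastp 0.18.0, without role or order. Which tool counted, how strand was handled and how shared reads were split are not given in the sources used here. TPM sums to a fixed total, so a change in a few abundant genes moves all others.

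Counts per library were 16787561 to 19887539. All genes kept by filterByExpr (12207) were fitted with edgeR 4.0.16 in R 4.3.3 (TMM factors, robust glmQLFit and glmQLFTest), with Benjamini-Hochberg adjustment over all of them and calls made under 0.05. Each log2 fold change is that of resmetirom over control, and the SE is the change over the square root of F. Alternatives were library sizes only, library sizes without 22 Mup genes, DESeq2 1.42.0, no filter, limma 3.58.1 on log2(TPM + 1) and log2(TPM + 0.1), the replicate number as a block, leaving out each library, and, for class medians, taking out a trend on exonic length (24 ranges 0.25 log2 units wide or wider, each with at least 20 genes). Lengths are unions of annotated exons in GENCODE M21 (12187 of 12207 genes).

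The members and lists were chosen with earlier results of these data known, so lists are described by counts and medians without a test. Genes named with full values are all mt-Nd genes, the 7 core subunits, every called member, the 3 smallest p and the largest p of each other class, and from each pathway list up to 3 called genes or else the gene with the smallest p. A gene that this rule takes is not reported here singly, though it is in the counts and medians of its class. Others, such as Ndufa1, Ndufc1, the remaining Ndufaf genes, Col3a1, Alas2 and the hepatocyte markers, were added after their values were seen. On simulated counts of this comparison (12091 genes in the test, 50 changed per fold), the fit found 30% of those changed 1.5-fold. At 2-fold it found 80%, at 4-fold 94% and at 8-fold 100%. Of its 164 calls 12 were false. The simulated counts held no shift in makeup such as that of the Mup genes. Their changed genes were drawn at random from all but the rarest genes, so these shares need not hold for the Complex I members.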

Additional observations from a re-analysis of the deposited data

Results flagged for a closer look

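Of 74 groups of 4 libraries examined for a value far from the other 3, 1 was marked, and chance marks about 1 in 20 groups. In the resmetirom libraries, mt-Nd4l was at 131 CPM in replicate 3, while the other 3 libraries were at 99.2 to 102 CPM, so the gap took 0.900 of the whole range. All 4 values lie above the control libraries.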

How the results depend on the processing

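Limits: most nuclear members lie under 1.5-fold, where 4 libraries per group give few calls, the zero of every fold change rests on the scaling, and Ndufa4l2 and the rarer assembly factors rest on few counts. Over all genes, the calls were 151 higher and 1961 lower with library sizes only, 444 lower without the Mup genes, 532 and 411 with DESeq2, 123 and 4648 on log2(TPM + 1), and 122 and 4608 on log2(TPM + 0.1). Of the members, 2, 4 and 15 were called higher with library sizes only, without the Mup genes and with DESeq2, and 0 on both TPM scales, where 10 were lower (4 core, 1 accessory, 4 assembly and Ndufa4l2). Among mitochondrial subunits 2 were called with library sizes only, 3 without the Mup genes, 6 with DESeq2 and 0 on TPM, and among accessory subunits 0 with library sizes only, 1 without the Mup genes, 9 with DESeq2 and 0 on TPM. Causes were not tested.

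With library sizes only the medians were 0.25 (mitochondrial), -0.19 (core), -0.011 (accessory), -0.26 (assembly) and -0.045 (nuclear subunits), and without the Mup genes 0.45, 0.010 (core), -0.068 (assembly) and 0.15 (nuclear). On log2(TPM + 1) they were 0.084, -0.38, -0.21, -0.47 and -0.23, and on log2(TPM + 0.1) 0.084, -0.38, -0.21, -0.49 and -0.23. With the length trend out they were 0.33 (mitochondrial), -0.036 (assembly) and 0.16 (nuclear). The log2 difference of the mitochondrial to nuclear ratio was 0.18, 0.15 from TPM and 0.17 without mt-Nd6.

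Leaving out 1 library gave 182 to 313 genes higher and 149 to 238 lower, 2 to 9 members higher (2 without control replicate 4 or resmetirom replicate 4, 3 without control replicate 2, 4 without resmetirom replicate 3), 1 to 5 mitochondrial and 1 to 6 accessory subunits higher, a mitochondrial median of 0.45 to 0.65, and a ratio of 0.085 to 0.25. The lowest counts over all genes came without control replicate 4, followed by resmetirom replicate 4 (208 and 161), and each of these omissions left 1 mitochondrial subunit called, while omitting control replicate 2 left 2. Omitting control 2, control 4, resmetirom 3 or resmetirom 4 left 1 accessory subunit called, and omitting resmetirom 2 gave 6. The lowest ratio came without control replicate 1. Ndufs1 ranged from -0.050 to 0.032 and turned without control replicate 2 (0.0091) and resmetirom replicates 1 (0.032) and 3 (0.0072). Ndufa10 ranged from -0.035 to 0.13 and Ndufaf1 from -0.037 to 0.10. Both turned without control replicate 3 (-0.028 and -0.037), control replicate 4 (-0.035 and -0.00096) and resmetirom replicate 4 (-0.0019 and -0.037).

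Replicate numbers are shared between the groups, and same-numbered libraries correlated at -0.325, 0.184, -0.186 and -0.061 in their deviations. These values gave no sign of pairing by number but cannot exclude it, and the labels do not say. With the replicate block, 240 genes were higher and 166 lower, 5 members were higher, of them 4 mitochondrial and 1 accessory, and the mitochondrial median was 0.59.

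Log2 fold changes that turned below 0 with library sizes only were -0.0046 (mt-Nd2), -0.20 (Ndufs3), -0.094 (Ndufs7), -0.18 (Ndufs8), -0.19 (Ndufv1), -0.089 (Ndufv2), -0.28 (Ndufa10), -0.14 (Ndufaf7), -0.22 (Ndufaf2), -0.28 (Ndufaf1), -0.098 (Ndufa4) and -0.0032 (Lyrm2), and without the Mup genes -0.0044 (Ndufs3), -0.090 (Ndufa10), -0.019 (Ndufaf2) and -0.083 (Ndufaf1). On log2(TPM + 1), then log2(TPM + 0.1), they were -0.17 and -0.17 (mt-Nd1), -0.19 and -0.19 (mt-Nd2), -0.11 and -0.11 (mt-Nd4), -0.40 and -0.40 (Ndufs3), -0.30 and -0.30 (Ndufs7), -0.36 and -0.37 (Ndufs8), -0.38 and -0.38 (Ndufv1), -0.29 and -0.29 (Ndufv2), -0.11 and -0.11 (Ndufa6), -0.033 and -0.033 (Ndufb11), -0.17 and -0.17 (Ndufc2), -0.42 and -0.43 (Ndufa10), -0.25 and -0.27 (Ndufaf3), -0.24 and -0.25 (Ndufaf7), -0.39 and -0.41 (Ndufaf2), -0.47 and -0.48 (Ndufaf1), -0.29 and -0.29 (Ndufa4), -0.20 and -0.22 (Lyrm2) and -0.19 and -0.19 (Sdhd).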
